A study of Mus musculus with 4 samples.

Results

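Solute carriers are membrane proteins that move amino acids, sugars, ions, metals, nucleotides and other small molecules across the plasma membrane and the membranes of mitochondria, lysosomes, endosomes and the Golgi. Their genes carry the prefix Slc, a family number given by sequence likeness, and a member number. The genes described here are those whose symbol starts with Slc and a number, apart from Slc2a1 and Slc40a1, and whose signal reached at least 100 on at least 1 of 4 arrays. Where a gene had several probe sets, the one of highest mean signal stands for it. The rule kept 119 of 345 measured solute carrier genes, against 7419 of all 18194 genes that reached the same signal. The members were thus selected on their signals, so their being expressed is not a result. A member that reached 100 only in the subset where it is bright had to differ to some degree between the subsets, and 9 members reached it in the Ly6Chigh arrays only and 10 in the Ly6Clow arrays only. The counts of calls below are descriptions for the same reason, and no p-value is given for such a member.

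The arrays compared splenic monocytes of control mice (WT, strain label C57BL/6) with those of miR-146a-/- mice (KO, strain label B6(FVB)-Mir146tm1.1Bal/J), while littermates is the word for the controls in the source labels. From each genotype, CD11b-positive spleen cells were taken on magnetic beads and sorted into Ly6Chigh monocytes, the classical subset that enters inflamed tissue, and Ly6Clow monocytes, known for crawling along vessel walls. No further treatment, age or sex is given in the sources used here. There was 1 array per group, made from pooled material of several mice, so pairwise differences have no replicate, error or p-value. Strain label and genotype cannot be told apart. The protocol can also be read as a different red cell lysis buffer for each genotype, and on that reading the buffer cannot be told apart from them either.

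In monocytes and macrophages, solute carriers are best known for work at the phagosome and lysosome. Slc11a1 moves metal ions out of the phagosome, Slc15a3 and Slc15a4 export histidine and bacterial peptides from endolysosomes, and Slc29a3 exports nucleosides from lysosomes. Others set the cell's chloride and pH, feed mitochondria with phosphate and ADP, or load the Golgi with nucleotide sugars. miR-146a is a microRNA that dampens signalling downstream of Toll-like receptors. Its mature sequence is shown here because it is what the KO mice lack, beside that of miR-146b, encoded on another chromosome, with the seed (bases 2 to 8) in capitals. The sequences are RefSeq's on GRCm38.p6, at chr11:43374435-43374456 on the minus strand and chr19:46342790-46342811 on the plus strand. Both have 22 bases and the same seed, and they differ at 2 positions.
mmu-miR-146a-5p: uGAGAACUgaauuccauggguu
mmu-miR-146b-5p: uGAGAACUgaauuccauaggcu

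Between 46.8% and 48.6% of probe sets were called Present on the arrays. The deleted gene was not analysed here and gives no check of the genotypes. The sort labels fitted the subset markers: the summed signal of 5 measured Ly6Chigh markers was 16215.6 and 15721.7 on the Ly6Chigh arrays (WT and KO) and 1255.6 and 978.6 on the Ly6Clow arrays. That of 9 Ly6Clow markers was 11506.9 and 9860.7 on the Ly6Chigh arrays and 42808 and 40130.5 on the Ly6Clow arrays. Markers of other cells differed between the same arrays. Neutrophil markers (5 measured, 3 or 4 Present) summed to 3276.6 and 2186.2 in Ly6Chigh and 1902.5 and 1534.8 in Ly6Clow, with Cxcr2 Absent on all arrays. B cell markers (4 measured, 2 or 3 Present) summed to 291.3 and 180.9 in Ly6Chigh and 715.5 and 433.6 in Ly6Clow, with Pax5 Absent on all arrays. Platelet markers (5 measured, 3 to 5 Present) summed to 314.5 and 373.4 in Ly6Chigh and 453.5 and 735.4 in Ly6Clow. Conventional dendritic cell markers (3 measured, 0 or 1 Present) summed to 212.4 and 150.2 in Ly6Chigh and 33.5 and 58.2 in Ly6Clow, of which Flt3 made up 191.6 and 120.5, and 11.9 and 21.6. Plasmacytoid ones (3 measured, 0 or 1 Present) summed to 34.1 and 37.5 in Ly6Chigh and 123.7 and 75 in Ly6Clow. Of these sums Ly6d made up 18.4 and 19.6, and 108.5 and 45.6, while Siglech and Ccr9 were Absent on all arrays. Red pulp macrophage markers (6 measured) summed to 467.7 and 491.2 in Ly6Chigh and 530.7 and 583 in Ly6Clow, and NK cell markers (4 measured) to between 57.5 and 100.7 on all arrays. No T cell marker was Present (0 of 4). The part of these cells in the differences below was not tested, and in pooled sorted cells fewer cells of a type and less RNA per cell cannot be told apart. None of 4 measured erythroid genes was Present on any array (0 of 4), and the red cell anion exchanger gene Slc4a1 was Absent on all 4 arrays, with signals of 1.3 to 7.

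The first comparison asked how solute carriers differ between the Ly6C subsets. Calls of higher or lower required signals that differed at least 2-fold (log2 ratio of 1), a Present call on the brighter array and a signal there of at least 100. Ratios are given as Ly6Clow over Ly6Chigh. In WT, 7 members were called higher in Ly6Clow and 10 lower, where the rule called 5.19% and 7.09% of all genes that reached the same signal. In KO, 6 were higher and 14 lower, against 5.18% and 7.14% of those genes. The rule called 5 members higher in both genotypes, against 3.88% of all genes, namely Slc12a2, Slc29a1, Slc25a40, Slc46a3 and Slc11a1. It called 9 members lower in both, against 5.59%, namely Slc16a6, Slc25a4, Slc29a3, Slc31a1, Slc9a7, Slc49a4, Slc9a9, Slc30a1 and Slc25a15. A 2-fold call in both genotypes leaves little room for the arrays of the subsets to overlap, so their order is no added support. No member was called in opposite directions in the 2 genotypes (0 of 119), and 95 were called in no comparison. These 2 counts were not set beside those over all genes and are not read as a trait of the members.

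**Figure D1:**
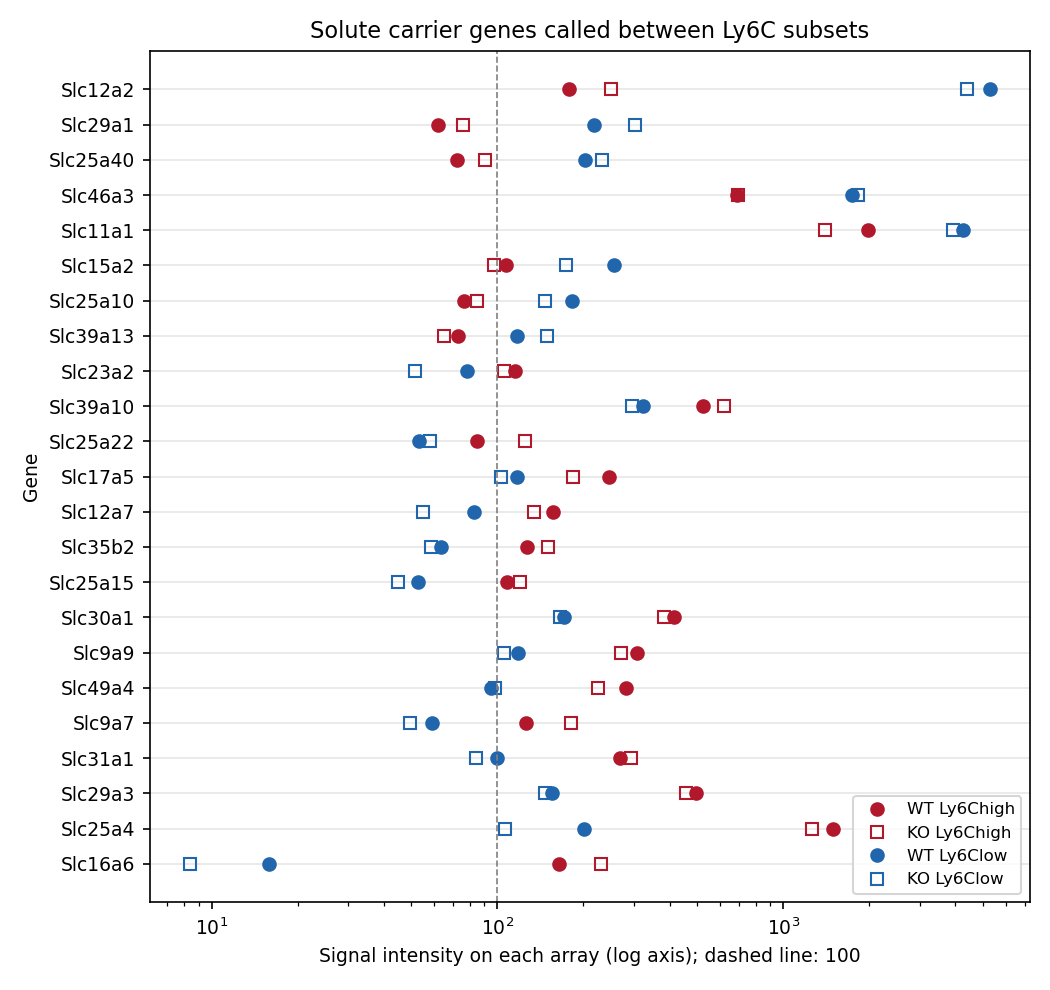
Signal intensity (log axis) on each of the 4 arrays for the 23 solute carrier genes called between the Ly6C subsets in at least 1 genotype, with Ly6Chigh arrays in red, Ly6Clow arrays in blue, WT as filled circles and KO as open squares, and a dashed line at 100. The red and blue points of each gene separate, as the calling rule demands in at least 1 genotype. They lie furthest apart for Slc12a2 (blue higher) and for Slc16a6 and Slc25a4 (red higher).

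The ratios of most members were small, as were those of most genes. The median log2 ratio was -0.03 in WT and -0.05 in KO, against 0.00 and -0.01 over all genes. Within 0.5 of 0 were 72 members in WT (60.5%) and 74 in KO (62.2%), against 64.7% and 67.2% of all genes. The median size was 0.378 in WT and 0.374 in KO, against 0.349 and 0.330 over all genes. The WT and KO arrays are separate, and 103 of 119 members (86.6%) had the same sign of the ratio in both genotypes, against 82.7% of all genes. Across members, which are not independent replicates, the WT and KO ratios had a Pearson r of 0.946, and of 0.940 without Slc12a2, against 0.933 over all genes. These points share the 4 arrays and their scaling.

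**Figure D2:**
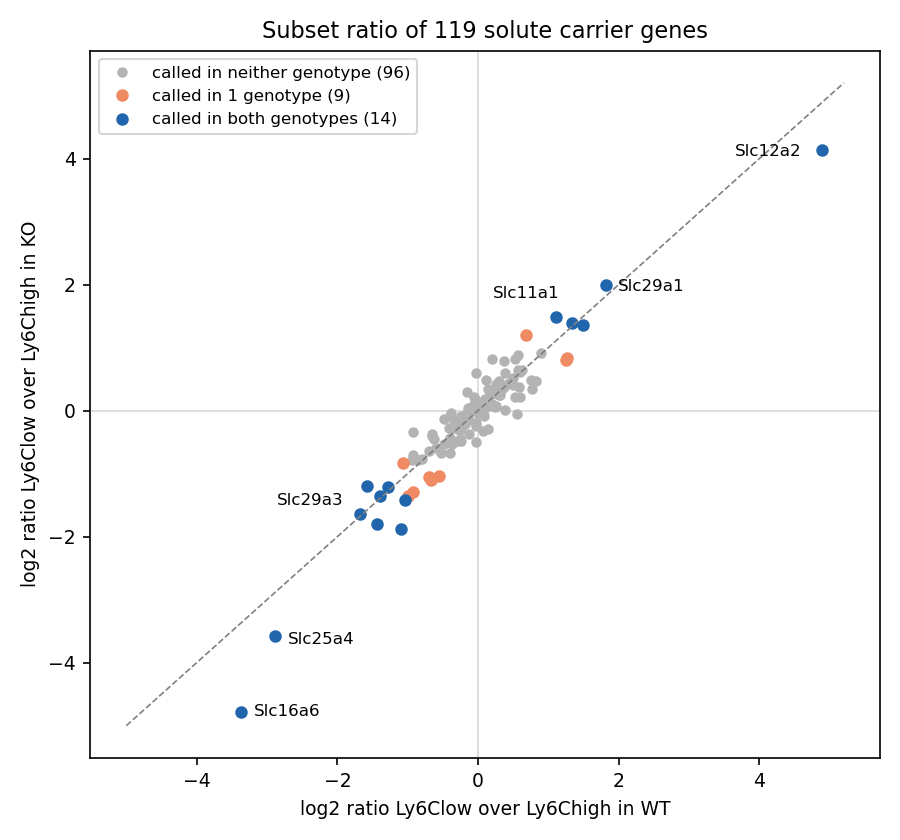
Log2 ratio of Ly6Clow over Ly6Chigh in KO (vertical) against WT (horizontal) for the 119 solute carrier genes, with the line of equal ratios dashed and genes coloured by whether both genotypes, 1 or neither called them. The 14 genes called in both genotypes lie toward the ends of the diagonal, with Slc12a2 at 4.89 and 4.13 and Slc25a4 at -2.89 and -3.58. Slc16a6 is drawn at the ratio of its signals, of which those in Ly6Clow are under the level of Absent probe sets.

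Ion and pH carriers had 12 members of 52 measured genes. The rule called 1 higher and 2 lower in both genotypes, against 3.88% and 5.59% of all genes. Slc12a2 encodes the cotransporter that brings sodium, potassium and chloride into the cell and sets its chloride and volume. Its signals were 178 in WT Ly6Chigh and 5279 in WT Ly6Clow, and 250.3 and 4395.7 in KO. Both Ly6Clow arrays lay above both Ly6Chigh arrays, 29.7-fold in WT and 17.6-fold in KO, and the other 2 probe sets of the gene gave log2 ratios of 4.31 and 4.82 in WT and 3.67 and 4.43 in KO. Slc12a7, a cotransporter that takes potassium and chloride out of the cell, went the other way, at 156.4 and 82.7 in WT (log2 -0.92) and 134.7 and 54.8 in KO (-1.30), and only the KO ratio passed the rule. Slc9a9, a sodium/proton exchanger of endosomes, had signals of 308.3 and 117.6 in WT and 270 and 105.4 in KO, and Slc9a7, an exchanger of the Golgi, 125.7 and 59 in WT and 181.3 and 49.5 in KO. Both exchangers were brighter on each Ly6Chigh array than on either Ly6Clow array, at log2 -1.39 and -1.36 for Slc9a9 and -1.09 and -1.87 for Slc9a7. The sulfate carrier Slc26a2 did not pass the rule at 0.56 and -0.06, and another probe set, Present on all arrays at 224 to 256.5, gave 0.11 and 0.00. A further, dim probe set (8.8 and 58.6 in WT, 23.8 and 64.6 in KO) was brighter in Ly6Clow in both genotypes. Its Ly6Chigh signals lay under the 95th percentile of Absent signals on those arrays (24.6 and 28.8). Slc8b1, the mitochondrial sodium/calcium exchanger, did not pass the rule either, at 0.15 and 0.34.

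Among metal and heme carriers, 19 of 33 measured genes were members. The rule called 3 of them lower and 1 higher in Ly6Clow in both genotypes, against 5.59% and 3.88% of all genes. Whatever the size of the ratio, 11 of the 19 were below 0 and 7 above 0 in both genotypes. Slc31a1 is the copper importer of the plasma membrane. Its signals were 267.8 in WT Ly6Chigh and 99.4 in WT Ly6Clow, and 293.1 and 84.4 in KO. This was a 2.69-fold and 3.47-fold lower level in Ly6Clow. Its other probe set was Present on all 4 arrays and gave smaller log2 ratios of -0.51 and -0.78. The related Slc31a2, also linked to copper, gave -0.63 and -0.45 and did not pass the rule, although another probe set of it gave -1.34 in WT and -0.50 in KO. Slc30a1, which exports zinc from the cell, had signals of 414.2 and 171.1 in WT and 383.3 and 165.7 in KO, and was lower in Ly6Clow in both genotypes at log2 -1.28 and -1.21. Its other probe set, Absent on both Ly6Clow arrays, gave -0.25 in WT and -1.35 in KO. With probe sets averaged, the WT ratio of Slc30a1 (-0.77) was not called. The zinc importer Slc39a10 passed the rule in KO only, with signals of 524.6 and 322.5 in WT (log2 -0.70) and 619.3 and 296.8 in KO (-1.06).

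Slc11a1 moved the other way from the metal carriers named above. Its signals were 1981.2 in WT Ly6Chigh and 4257.5 in WT Ly6Clow, and 1398.6 and 3922.3 in KO, so that both Ly6Clow arrays were above both Ly6Chigh arrays, at log2 1.10 and 1.49. C57BL/6 mice are known to carry an allele of Slc11a1 whose protein does not work. Slc39a13, another zinc carrier, passed the rule in KO only, where its Ly6Chigh signal was Absent (65.1 against 149, log2 1.19), and was at 72.6 and 116.8 in WT (0.69). Slc49a4, a protein of the lysosomal membrane grouped here with the heme carriers of its family, had signals of 282.2 and 94.6 in WT and 225 and 97.7 in KO, lower in Ly6Clow at log2 -1.58 and -1.20. Other members named for their mean signal or their role did not pass the rule: Slc30a5, a zinc carrier of the secretory pathway, was at -0.03 and -0.19 and the zinc importer Slc39a1 at -0.70 and -0.64. Slc48a1, which moves heme out of the endolysosome, was at -0.38 and -0.04. Slc41a3 of the same group was at 0.59 and 0.21. Another probe set of Slc41a3, Present on all arrays, had signals of 109.3 and 219.6 in WT and 92.5 and 203.4 in KO (log2 1.01 and 1.14).

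Mitochondrial carriers of the Slc25 family were the largest group, with 25 of 44 measured genes. Slc25a4 and Slc25a5 encode exchangers of ADP and ATP across the inner membrane, and they gave different ratios. Slc25a4 had signals of 1492.1 in WT Ly6Chigh and 201.6 in WT Ly6Clow, and 1263.8 and 106 in KO, 7.40-fold and 11.9-fold lower in Ly6Clow. Its other Present probe sets gave log2 ratios of -2.85 and -3.17 in WT and -3.12 and -3.31 in KO, so 3 probe sets placed both Ly6Clow arrays far below both Ly6Chigh arrays. Slc25a5 did not pass the rule, at 5800.6 and 5230 in WT and 5044.5 and 4876.1 in KO, or log2 -0.15 and -0.05. Its other 7 probe sets were Present on all arrays and did not pass it either, but 4 of them gave lower log2 ratios, from -0.90 to -0.53 in WT and from -0.94 to -0.34 in KO. The phosphate carrier Slc25a3 was likewise at -0.14 and 0.04.

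Slc25a40 and Slc25a39 are linked to the import of glutathione into mitochondria. Slc25a40 was Absent on both Ly6Chigh arrays (71.9 and 90.6) and Present on both Ly6Clow arrays (202 in WT and 232.6 in KO), at least 2.81-fold and 2.57-fold higher in Ly6Clow. In the authors' deposited table, its log2 fold was smaller, at 0.7 in WT and 0.3 in KO. Slc25a39 gave log2 ratios of -0.30 and -0.28. Slc25a15, which brings ornithine into mitochondria, had low signals of 108.1 and 52.6 in WT and 119.6 and 44.9 in KO and was lower in Ly6Clow at -1.04 and -1.41. The authors' deposited table made no change call for it in either genotype (log2 fold -0.7 and -1). The dicarboxylate carrier Slc25a10 passed the rule in WT only (76.3 and 182.1, log2 1.25, against 84.7 and 147 in KO, 0.80). In the authors' deposited table its log2 fold in WT was 0.3, and with an offset of 32 its ratio of 0.98 was not called. The glutamate carrier Slc25a22 passed the rule in KO only (125 and 58.1, log2 -1.11, against 84.7 and 53.3 in WT, -0.67). Its log2 fold in the authors' deposited table was -0.5 in WT and -0.7 in KO, without a change call. Slc25a20, which carries acylcarnitines for fatty acid oxidation, was at -0.16 and -0.11.

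Nucleoside and nucleotide sugar carriers gave 16 members of 25 measured genes. The Slc29 family held calls in both directions. Slc29a1, the equilibrative nucleoside transporter of the plasma membrane, had signals of 61.9 in WT Ly6Chigh and 218.1 in WT Ly6Clow, and 76 and 303.9 in KO, a log2 ratio of 1.82 in WT and just under 2 in KO. Slc29a3, its lysosomal relative, had signals of 496.1 and 155.2 in WT and 456.5 and 146.9 in KO, at log2 -1.68 and -1.64. The subsets did not overlap for either gene, and they lay in opposite order. A further probe set of Slc29a3 was Present on the Ly6Chigh arrays only, at 105.5 and 111.5, against 11.8 and 14.7. Slc35b2 brings the sulfate donor into the Golgi. It had signals of 126.8 and 63.7 in WT (log2 -0.99) and 150.4 and 58.6 in KO (-1.36) and passed the rule in KO only. Its log2 fold in the authors' deposited table was -0.6 in WT and -0.6 in KO, with a change call of lower in WT only. With probe sets averaged, its KO ratio (-0.80) was not called. The 3 members named for their mean signal did not pass the rule. They were Slc35a5 at -0.80 and -0.77, the UDP-N-acetylglucosamine carrier Slc35a3 at 0.53 and 0.22, and Slc35b1 at -0.65 and -0.40.

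Of carriers of carboxylates and other organic ions, 8 of 54 measured genes were members. Slc16a6, a monocarboxylate carrier known in zebrafish for the export of ketone bodies from the liver, had signals of 163.7 in WT Ly6Chigh and 15.9 in WT Ly6Clow, and 230.9 and 8.4 in KO. Only its Ly6Chigh signals lay above the 95th percentile of Absent probe sets on the same array (27.8 in WT and 29.9 in KO Ly6Clow). Against those percentiles it was at least 5.89-fold lower in WT Ly6Clow and at least 7.72-fold lower in KO Ly6Clow. Slc17a5, the lysosomal carrier of sialic acid, passed the rule in WT only (245.9 and 117.5, log2 -1.07, against 183.8 and 103.1 in KO, -0.83). The aromatic amino acid carrier Slc16a10 was at -0.40 and -0.08, the lactate and pyruvate carrier Slc16a7 at 0.25 and 0.07, and Slc10a7 at -0.29 and -0.48.

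Vitamin, choline and lipid-related carriers had 6 members of 22 measured genes. Slc46a3, a lysosomal relative of the folate transporters, had signals of 691.5 in WT Ly6Chigh and 1746.1 in WT Ly6Clow, and 696.4 and 1824.3 in KO, higher in Ly6Clow at log2 1.34 and 1.39. The choline transporter-like gene Slc44a2 had signals of 3826 and 7141.4 in WT and 3699.2 and 6932.1 in KO. Its log2 ratios of 0.90 and 0.91 were under the rule. Slc23a2, a vitamin C transporter, was dimmer in Ly6Clow in both genotypes and passed the rule in KO (105 and 51.3, log2 -1.03) but not in WT (115 and 78.4, -0.55). Slc33a1, which carries acetyl-CoA into the endoplasmic reticulum, was at -0.52 and -0.68.

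Amino acid carriers had no call between subsets (0 of 15 members, from 67 measured genes). Over all genes the rule called 5.19% higher and 7.09% lower in WT, and 5.18% and 7.14% in KO. At those shares few calls fall in a group this small. The lack of calls here and in the sugar and unsettled groups below is not read as a trait. The ratios of amino acid carriers ran from -0.94 to 0.77 in WT and from -0.79 to 0.52 in KO, and 10 were below 0 and 2 above 0 in both genotypes. The glutamine and alanine carrier Slc38a2 was at -0.25 and -0.09, its relative Slc38a1 at 0.04 and -0.06, and the taurine transporter Slc6a6 at -0.03 and 0.00. A second probe set of Slc6a6, Present on all arrays at 822.4 and 484.5 in WT and 503.5 and 454.1 in KO, gave -0.76 and -0.15. Slc3a2, the heavy chain that brings several amino acid exchangers to the cell surface, was at -0.26 and -0.13. Slc38a9, a lysosomal arginine sensor for the growth regulator mTOR, was at -0.25 and -0.46. Peptide carriers had 3 members of 5 measured genes. Slc15a2, which takes up dipeptides at the plasma membrane, had signals of 106.9 and 256 in WT (log2 1.26) and 97.2 and 173.9 in KO (0.84) and passed the rule in WT only. Slc15a4 gave 0.63 and 0.64 with signals of 853 and 1320.4 in WT and 999.2 and 1561.5 in KO, and Slc15a3 gave -0.19 and -0.21. Sugar carriers had 5 members of 32 measured genes and no call. The hexose transporter Slc2a6 was at -0.03 in WT and 0.60 in KO, Slc50a1 at 0.26 and 0.42, and Slc37a3 at 0.32 and 0.24, with a second probe set at 1.04 and -0.33. The 10 members of unsettled substrate had no call either. Among them, Slc9a3r1, a scaffold protein named after an exchanger it binds and no carrier itself, was at 0.15 and 0.08, Slc66a2 at 0.37 and 0.79 and Slc35f5 at -0.41 and -0.47.

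**Figure D3:**
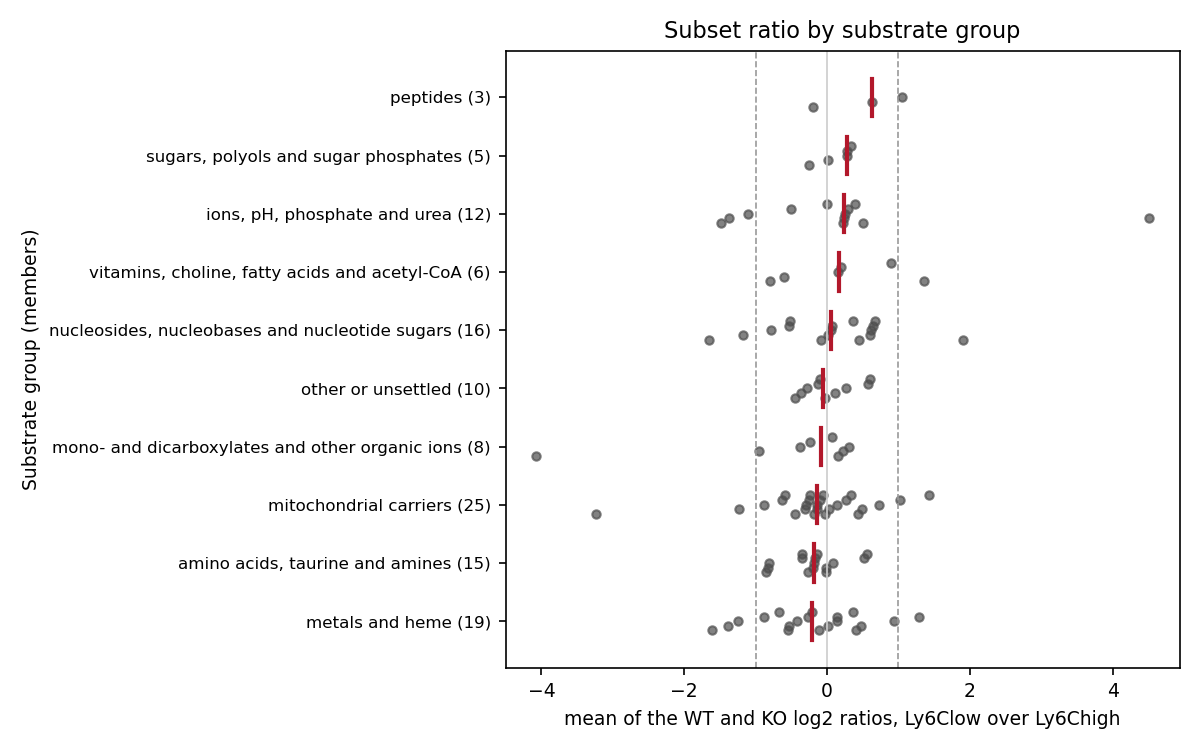
Mean of the WT and KO log2 ratios of Ly6Clow over Ly6Chigh for each of the 119 solute carrier genes, in 10 substrate groups with the number of members in brackets, a red bar at each group's median and dashed lines at -1 and 1. Group medians lie between -0.21 for metals and heme and 0.64 for peptides, which has 3 members.

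An additive model of subset and genotype (limma, 1 residual degree of freedom) used both genotypes as the arrays of each subset and was tested over 11099 genes Present on at least 1 array. At a Benjamini-Hochberg adjusted p of 0.05 it called 4 members higher in Ly6Clow and 6 lower, where it called 3.41% and 4.86% of genes that reached the same signal. Of these 10, 6 reached the signal of 100 in both subsets. They were Slc12a2 (log2 4.51, SE 0.251, limma adjusted p = 0.0314) and Slc46a3 (1.36, SE 0.117, adjusted p = 0.0392), which were higher, and Slc25a4 (-3.23, SE 0.233, adjusted p = 0.0352), Slc29a3 (-1.66), Slc9a9 (-1.37) and Slc30a1 (-1.24), which were lower. The other 4, Slc29a1, Slc25a40, Slc31a1 and Slc16a6, were kept as members through the subset where they are bright, so the model is no test of them. Slc11a1 and Slc44a2 missed the threshold at limma adjusted p of 0.0543 and 0.0554. With no filter on Present calls, or with the probe sets of each gene averaged, the model called no member and no gene (0). With a variance trend it called 29 members higher and 36 lower, against 2218 and 2372 of the 11099 genes. At an unadjusted p of 0.05 the main model called 23 members higher and 30 lower, against 17.1% and 20.3% of genes.

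Several probe sets were available for 73 of the 119 members. For the members called in WT, 9 of 10 other Present probe sets went the same way, 6 of them 2-fold. In KO 12 of 12 did, 10 of them 2-fold. These probe sets belonged to only 7 of the members called in WT (7 higher and 10 lower) and 9 of those called in KO (6 and 14). The other called members had no second Present probe set. No such probe set went 2-fold the opposite way (0 in either genotype).

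Promoter sequence was examined as a description of the members, which were called in both directions. RefSeq windows of 250 bases before the gene start (GRCm38.p6) were held for 94 of the 119 members. These were searched on both strands, each motif on its own, for the core motif of PU.1 (GAGGAAGT), a factor needed for monocytes, for that of C/EBP factors (TTGCNNAA), and for the element of NR4A receptors (AAAGGTCA), which are needed for Ly6Clow monocytes. The motifs were chosen after the ratios were known. The PU.1 core stood in 4 of 94 windows (4.26%) against 2.79% of 27025 genes, the C/EBP core in 8 of 94 (8.51%) against 10.8%, and the NR4A element in 0 of 94 against 1.55%. The member windows had a median of 61.8% G and C, against 52.4% of all windows. Unlike the members, the genes behind these comparison values were not selected on signal, and the part of that selection was not tested. The 4 windows with a PU.1 core are shown with the match, or its reverse complement, in capitals. Their genes do not share a call: Slc31a1 and Slc49a4 passed the rule as lower in Ly6Clow in both genotypes, Slc35b2 passed it in KO and missed it in WT (-0.99), and Slc22a15, a carrier of organic cations and carnitine-like compounds, was not called (0.26 and 0.37). A match is not a shown binding site.
Slc31a1 (chr4:62360451-62360700, plus strand): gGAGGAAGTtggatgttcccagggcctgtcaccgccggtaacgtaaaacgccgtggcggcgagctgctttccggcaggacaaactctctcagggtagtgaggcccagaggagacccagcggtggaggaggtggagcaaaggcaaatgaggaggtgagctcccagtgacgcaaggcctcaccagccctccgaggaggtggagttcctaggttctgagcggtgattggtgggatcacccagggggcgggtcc
Slc49a4 (chr16:35769371-35769620, minus strand): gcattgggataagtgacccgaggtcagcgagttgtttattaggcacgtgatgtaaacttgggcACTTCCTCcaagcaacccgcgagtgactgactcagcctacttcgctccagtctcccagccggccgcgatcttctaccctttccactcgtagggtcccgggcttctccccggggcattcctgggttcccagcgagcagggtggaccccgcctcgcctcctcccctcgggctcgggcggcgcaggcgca
Slc35b2 (chr17:45563686-45563935, plus strand): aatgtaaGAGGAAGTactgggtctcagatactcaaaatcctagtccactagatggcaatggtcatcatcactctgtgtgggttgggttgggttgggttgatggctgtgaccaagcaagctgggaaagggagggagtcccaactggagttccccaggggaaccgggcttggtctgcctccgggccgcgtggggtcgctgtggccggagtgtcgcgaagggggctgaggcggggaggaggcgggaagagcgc
Slc22a15 (chr3:101924454-101924703, minus strand): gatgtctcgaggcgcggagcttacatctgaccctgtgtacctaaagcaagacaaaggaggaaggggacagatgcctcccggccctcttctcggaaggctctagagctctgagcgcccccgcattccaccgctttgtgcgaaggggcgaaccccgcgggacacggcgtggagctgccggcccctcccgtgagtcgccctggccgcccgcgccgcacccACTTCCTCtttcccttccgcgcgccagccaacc

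The second comparison asked what changes in each subset without miR-146a. In Ly6Chigh monocytes no member was called higher in KO than in WT (0 of 119, against 0.229% of all genes that reached the same signal) and 1 was called lower (0.148%). In Ly6Clow monocytes no member was called higher (0 of 119, 0.175%) or lower (0 of 119, 0.0944%). The median log2 ratio of KO over WT was -0.02 in Ly6Chigh and -0.05 in Ly6Clow, against -0.03 over all genes in each, and 113 and 112 of the 119 members were within 0.5 of 0. These arrays are the same that gave the subset ratios. In the additive model no member and no gene passed for genotype (0 of 119, limma smallest adjusted p 0.742), and at an unadjusted p of 0.05 it called 2 members, both lower in KO, against 1.62% of genes higher and 1.39% lower.

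Slc36a1 was the called gene. It encodes a lysosomal carrier that moves small amino acids out together with protons. Its signals were 335.4 in WT and 165.8 in KO Ly6Chigh (log2 -1.02), and 174.6 in WT and 96.8 in KO Ly6Clow (-0.85). Both KO arrays lay below both WT arrays, and the Ly6Chigh ratio was just past the threshold. In the authors' deposited table, the same gene had log2 folds of -0.1 and -0.3 and no change call. It has 1 probe set, and its Ly6Chigh ratio was no longer called with median centring (-0.98) or an offset of 32 (-0.89). Slc36a1 is 1 of 13 members on chromosome 11, which also carries Mir146, and the medians of these 13 were -0.09 in Ly6Chigh and -0.11 in Ly6Clow. Distances from Mir146 were not used, and a part of the chromosome or strain label in the ratio of Slc36a1 was not tested.

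**Figure D4:**
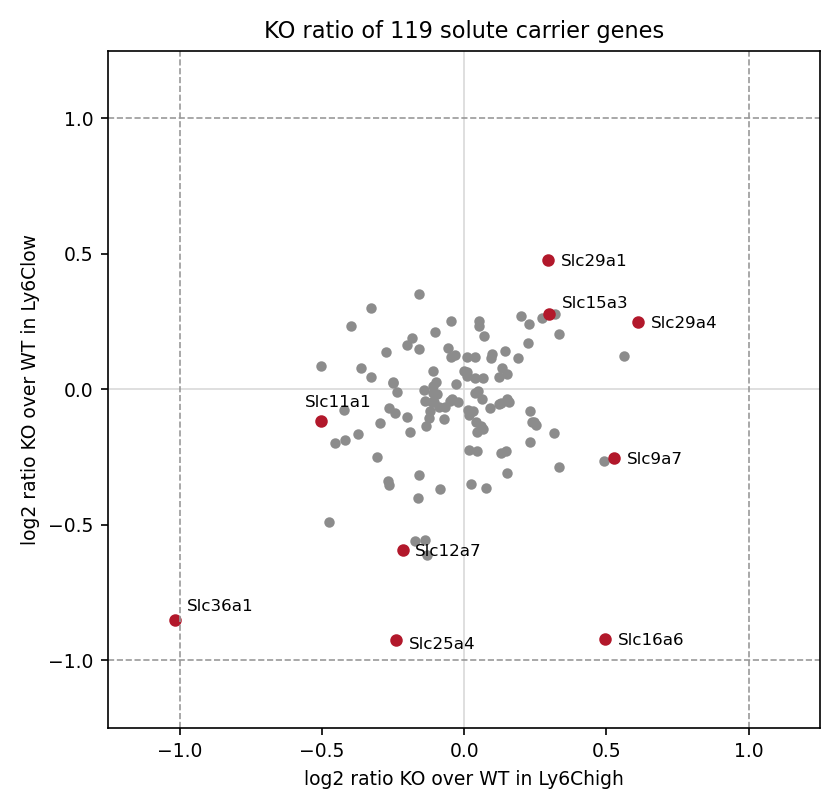
Log2 ratio of KO over WT in Ly6Clow (vertical) against Ly6Chigh (horizontal) for the 119 solute carrier genes, with dashed lines at -1 and 1 and 9 genes named in red. Most points lie within 0.5 of 0 on both axes, and Slc36a1, at -1.02 and -0.85, stands at the lower left.

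Other members with larger ratios were called by no 2-fold rule. Slc25a4 was lower on both KO arrays, at 1492.1 in WT against 1263.8 in KO Ly6Chigh (log2 -0.24) and 201.6 against 106 in KO Ly6Clow (-0.93), and its other probe sets gave -0.64 and -0.65 in Ly6Clow. The member with the highest ratio in Ly6Chigh was Slc29a4, a carrier of monoamines and nucleosides, at 54 in WT against 82.5 in KO (0.61), and 95.6 against 113.7 in Ly6Clow (0.25). Slc11a1 was at 1981.2 in WT against 1398.6 in KO Ly6Chigh (-0.50) and 4257.5 against 3922.3 in Ly6Clow (-0.12). Its ratio lay below 0 in each subset, as did that of 39 members in all, while 26 were above 0 in both. The sign was the same in 65 of 119 members (54.6%), against 60.8% of all genes. The ratios in the 2 subsets, which share no array, had a Pearson r of 0.230 over the 119 members, 0.134 without Slc36a1, and 0.280 over all genes. For Slc16a6, KO exceeded WT in Ly6Chigh (163.7 and 230.9, log2 0.50), and no ratio is read in Ly6Clow, where its signals of 15.9 and 8.4 were under the 95th percentile of Absent probe sets.

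The authors' deposited table gave change calls for smaller differences. In Ly6Chigh it called 9 members higher and 13 lower in KO, against 9.08% and 10.5% of all genes. In Ly6Clow, the authors' deposited table called 3 higher and 7 lower, against 2.59% and 4.62%. The authors' deposited table called Slc15a3 higher in both subsets (log2 fold 0.4 in each) and Slc25a4 lower in both (-0.3 and -0.8), and it gave Slc2a6 opposite calls (-0.6 in Ly6Chigh and 0.2 in Ly6Clow). The signals of Slc15a3 were 794.5 in WT and 977.4 in KO Ly6Chigh, and 698.4 and 845.9 in Ly6Clow. Those of Slc2a6 were 411 in WT and 312.2 in KO Ly6Chigh, and 401.4 and 472.4 in Ly6Clow. For Slc15a3 both KO arrays were above both WT arrays, while for Slc2a6 the order of the genotypes turned between the subsets. Between the subsets, the authors' deposited table called 25 members higher and 39 lower in WT, against 22.8% and 27.4% of all genes, and 26 higher and 36 lower in KO, against 20.2% and 26.6%. The median size of the difference between the log2 ratio of signals and the log2 fold in the authors' deposited table for KO over WT was 0.057 in Ly6Chigh and 0.068 in Ly6Clow over the members, and in these 2 comparisons the largest was that of Slc36a1, 0.92 and 0.55. Between the subsets the largest were those of Slc25a10 in WT (0.95) and Slc25a40 in KO (1.06).

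**Figure D5:**
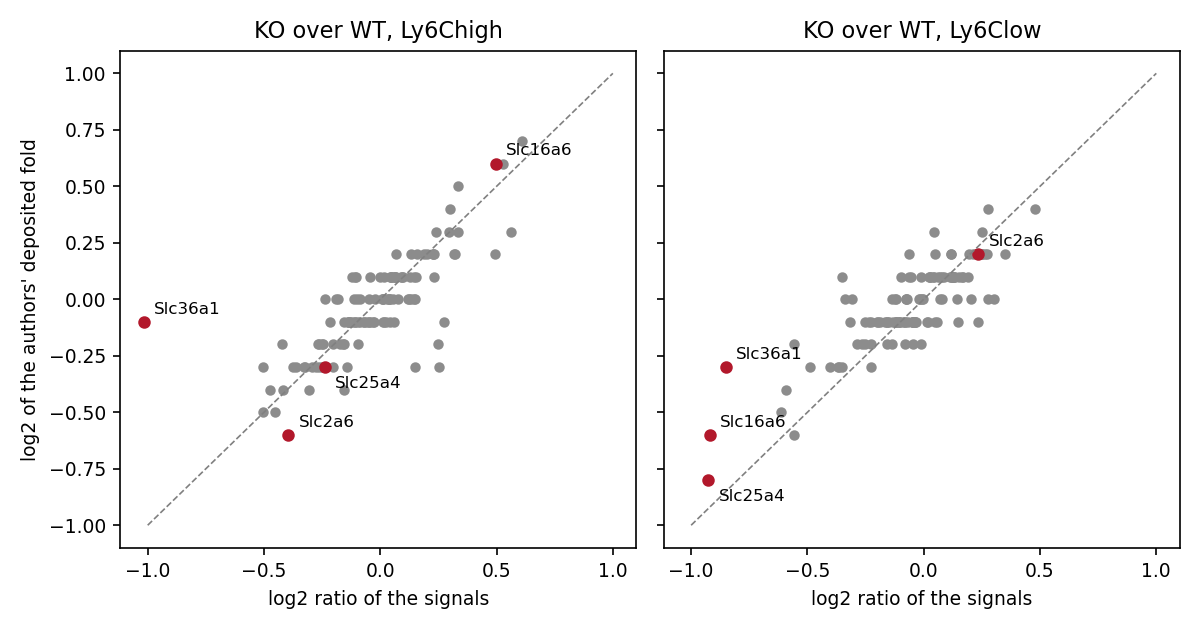
Log2 fold of KO over WT in the authors' deposited table (vertical) against the log2 ratio of the signals (horizontal) for the 119 solute carrier genes, in Ly6Chigh (left) and Ly6Clow (right), with equal values dashed and 4 genes named in red. Most points follow the line, and Slc36a1 lies above it, at -1.02 against -0.1 in Ly6Chigh and -0.85 against -0.3 in Ly6Clow.

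The level of 100 divided genes with close signals. Just inside were Slc26a11, Slc43a3, Slc35e4, Slc4a2 and Slc25a1, with highest signals of 105.2, 105.7, 106.8, 110.4 and 112.8, and just outside were Slc9a8, Slc25a13, Slc25a33, Slc5a11 and Slc22a4, with 98.6, 97.2, 94.6, 94.1 and 92.3. Of the 226 solute carrier genes under 100, 161 were Present on no array, and of the 119 members 115 were Present on all 4.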

How the data were processed

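RNA of sorted monocytes was measured on Affymetrix GeneChip mouse arrays of one design. The authors' deposited signal intensities are linear and were scaled by the authors to a common level, with a trimmed mean of 150.0 on each array. The sources used here do not give the algorithm. Expression Console 1.2.1 is named in the design text and GCOS in the submitters' processing notes. With each signal the authors deposited a detection p-value and a Present, Marginal or Absent call, and the authors' signed fold with a change call. A second deposited table held the same signals (0 of 180404 values differed).

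Of 45101 probe sets, 34958 had 1 gene symbol, 932 several (6 with a solute carrier, none used) and 9211 none, updated through RefSeq. The log2 ratios use the signals without an offset. Where the dimmer array was not Present, a fold is a bound, written as "at least": the dimmer signal, or the 95th percentile of that array's Absent signals (24.6 to 29.9) where larger, divides the brighter one. The same bound was used for Slc16a6 in WT Ly6Clow, which was Present but under that percentile. The additive model was limma 3.58.1 in R 4.3.3, tested on simulated data; Python 3.11.15 and pandas 2.3.3 did the rest. The model takes the interaction of genotype and subset as spread. The number of arrays limits the precision, and more so for dim probe sets.

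The members, substrate groups, marker lists and tests were chosen with earlier results of these data known. Slc9a3r1, Slc4a1ap and Slc7a6os, named after a partner or neighbour, were moved to the unsettled group after the data were seen. Genes named with values were up to 12 each way called in both genotypes, members called for KO, the 10 with the highest mean signal, the 3 highest in each substrate group, a short list of carriers known in macrophages, and 5 on each side of the signal minimum. Members called in 1 genotype, and Slc31a2, Slc41a3, Slc29a4 and Slc22a15 where outside that rule, were named after their values were seen. Alternatives were median centring, quantile normalization, an offset of 32, the mean of all probe sets, Present calls on both arrays, a 1.5-fold threshold and the authors' change calls, and for the model a variance trend and no filter.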

Additional observations from a re-analysis of the deposited data

Results flagged for a closer look

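The log2 ratio of KO over WT for Slc16a6, formed from the signals as deposited, came out at -1.42 for Ly6Clow minus Ly6Chigh, with KO above WT in Ly6Chigh. Neither the value nor a direction in Ly6Clow can be read from it, since both Ly6Clow signals, 15.9 and 8.4, were under the 95th percentile of Absent signals on their arrays (27.8 and 29.9). With 1 array per group the difference was not tested.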

How the results depend on the processing

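Of the 38 calls of single members, all kept their direction and call with quantile normalization, 37 with median centring, 33 with a Present call on both arrays, 32 by the authors' deposited change calls and 26 with an offset of 32; with probe sets averaged 25 did, 12 fell under the rule and the WT ratio of Slc25a10 turned to -0.10, where its second probe set was Absent on all arrays. In all, 22 of the 38 calls were lost in at least 1 setting; those of Slc12a2, Slc25a4, Slc29a1, Slc29a3, Slc46a3 and Slc11a1 were lost in none, and those of Slc25a15 went with an offset, averaged probe sets and the authors' deposited calls. For KO against WT in Ly6Chigh, the 1 lower member was lost with median centring (0) and an offset of 32 (0), and the authors' deposited calls gave 9 higher and 13 lower; in Ly6Clow they gave 3 and 7, and a 1.5-fold threshold gave 2 lower. Between subsets in WT, a 1.5-fold threshold gave 14 higher and 23 lower, the authors' deposited calls 25 and 39, and averaged probe sets 5 lower. In KO, a 1.5-fold threshold gave 18 higher and 23 lower, the authors' deposited calls 26 and 36, and an offset of 32 and averaged probe sets each gave 8 lower. The additive model called, for subset, 28 higher and 33 lower members with an offset of 32, against 2063 and 2254 of 11099 genes. With a variance trend it called 29 and 36 members, against 2218 and 2372 genes. With averaged probe sets or no filter on Present calls it called no member and no gene (0 and 0). For genotype it called 1 member lower with the offset, against 67 genes higher and 39 lower. With the trend it called 3 members lower, against 150 genes higher and 137 lower. The causes were not tested, except that looser thresholds call more genes by construction. The labels give no replicate numbers that pair arrays. The additive model, with genotype as a term, compares the subsets within each genotype and has 1 residual degree of freedom. Dim members, near the signals of Absent probe sets, have the least certain ratios.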

Other observations

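Some solute carriers known from macrophages stayed under a signal of 100 on all 4 arrays. Slc7a11, the cystine importer for glutathione synthesis, had signals of 10.2 to 18.2. Slc39a8, a zinc importer, was Present on the Ly6Chigh arrays only (15.2 in WT and 17.3 in KO), and so was the sugar phosphate carrier Slc37a2 (27.5 and 36.1). The glucose transporter Slc2a3 was Present on all arrays, at 45.4 and 70.7 in WT Ly6Chigh and Ly6Clow and at 66.7 and 89.9 in KO. Slc11a2, which imports iron, was Present on all arrays at 53.5 to 79, as was the lactate exporter Slc16a3 at 28.5 to 55.6. The amino acid carriers Slc7a2 and Slc7a5, and Slc30a4 and Slc46a2, were Present on no array.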
